A study of Mus musculus with 2 samples.

Results

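The 9 genes that code for the main mouse sensors of double-stranded RNA (dsRNA) and their closest partners were measured in Dicer_KO mouse embryonic stem cells (mESCs). The genes are Ddx58, Ifih1, Dhx58, Mavs, Tlr3, Eif2ak2, Zbp1, Ddx60 and Adar. They were taken by name rather than by a rule on their values, and all 9 were found among the 43629 genes of the count files. PolyA RNA was sequenced from 2 libraries of one genotype, labelled Dicer knockout on a 129/Ola background. Replicate 1 was at passage 7 and replicate 2 at passage 4. The cells derive from E14TG2a, an mESC line, and the mutants were made by excising part of Dicer1 with pairs of CRISPR/Cas9 guides, sorting single cells and growing clones in serum and LIF. The labels do not say which deletion each library carries, and WT libraries were not analysed here. Every value below is therefore a level in Dicer_KO mESCs or a difference between the 2 libraries, in which line, passage and library cannot be told apart. No p-value can be given for such a difference, and it has no replicate check.

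DICER cuts long dsRNA and microRNA precursors into small RNAs, and its helicase domain is related to those of the cytoplasmic dsRNA receptors. These receptors, RIG-I (Ddx58), MDA5 (Ifih1) and LGP2 (Dhx58), bind dsRNA in the cytoplasm, and RIG-I and MDA5 then signal through the mitochondrial adaptor MAVS to switch on interferon genes. TLR3 senses dsRNA in endosomes, PKR (Eif2ak2) halts translation when dsRNA is bound, and ZBP1 binds nucleic acids in the left-handed Z form. ADAR1 (Adar) edits adenosines in dsRNA to inosine, which keeps the RNA of the cell itself from setting off MDA5 and PKR. Several of these genes are themselves induced by interferon, and pluripotent cells are known for a weak interferon response.

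The interferon-stimulated response element (ISRE), the DNA motif through which type I interferon acts, was sought in the promoters of these genes. RefSeq promoter windows (GRCm38.p6, 250 bases before to 50 bases after an annotated start) were at hand for 7 of the 9 genes, and those of Dhx58 and Zbp1 were not used here. The core searched was GAAA, then any pair of bases, then GAAA, on both strands. It was present in the windows of 4 of the 7 genes, and 3.99% of all 27025 genes in the table had it in a window, or 3.44% of the 32851 windows. Each match is shown in 30 bases of the strand of the gene, with the match in capitals. The match of Ddx58 lies on the opposite strand and so reads as its reverse complement.
Ddx58 (minus strand, chr4:40239804-40239833, match from position +3): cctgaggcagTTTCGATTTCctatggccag
Ifih1 (minus strand, chr2:62646206-62646235, match from position +33): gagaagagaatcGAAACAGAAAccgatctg
Eif2ak2 (minus strand, chr17:78882535-78882564, match from position +19): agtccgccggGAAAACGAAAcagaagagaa
Ddx60, first match (plus strand, chr8:61928024-61928053, from position -53): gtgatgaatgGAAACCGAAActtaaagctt
Ddx60, second match (plus strand, chr8:61928058-61928087, from position -19): gagcagaagaGAAACCGAAActatccttca

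Ddx60 was the only one of the 7 genes with a pair of matches, and both had the same 10 bases. The matches of Ddx58, Ifih1 and Eif2ak2 began just past the annotated start. No match was found in the windows of Mavs, Tlr3 or Adar, which had 3 windows for its alternative starts. Only this core was sought and only in these windows, so a missing match does not show that a gene lacks an ISRE. The Tlr3 window (chr8:45410331-45410630) lies inside the annotated gene, which reaches 45411080 on the minus strand, so its outermost start was not searched.

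**Figure D1:**
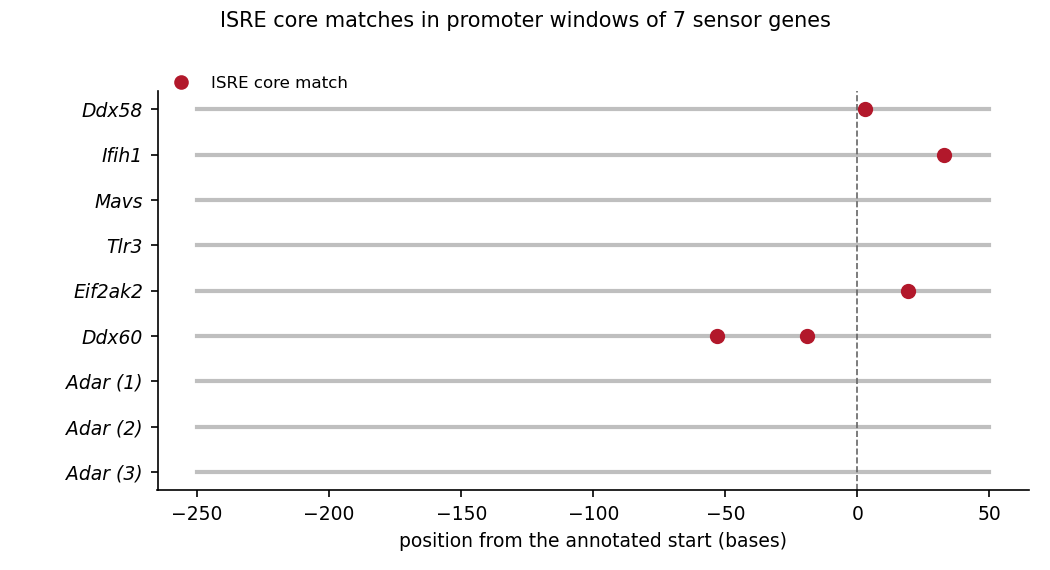
Each grey line is one promoter window, drawn from 250 bases before to 50 bases after the annotated start (dashed line), with the position of the first base of each match on the x axis. Red circles are ISRE core matches, found in 4 of 7 genes; Adar has 3 windows.

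The libraries held 41710122 counts in replicate 1 and 41566184 in replicate 2, so that 3 counts correspond to 0.0719 and 0.0722 counts per M (CPM). Dicer1, the targeted gene, had 1343 counts in replicate 1 and 1510 in replicate 2, and with no control library its counts do not check the deletion. All 8 mESC markers examined averaged 10 counts or more. Dppa5a carried most of their summed RPKM (reads per kb of exon per M, defined below), with 7433 in replicate 1 and 3434 in replicate 2. The other 7 summed to 1851 and 1707 RPKM and were inside 2-fold, with Pou5f1 at 400 and 480 and Nanog at 488 and 293 RPKM. Of 22 markers of other cells, 12 averaged 10 counts or more. Of these 12, 4 were more than 2-fold higher in replicate 1 and 0 in replicate 2. Among all genes that averaged 10 counts or more, 14.2% were so in replicate 1 and 7.14% in replicate 2. Those of fibroblasts, which can be present as feeder cells, summed to 7.61 RPKM in replicate 1 and 5.77 in replicate 2, most of it Thy1 (6.33 and 5.20 RPKM). Pdgfrb had 285 and 91 counts, Dcn 0 and 19, and Postn 0 in both. Those of blood cells summed to 28.4 and 30.3 RPKM, most of it Cd68 (23.8 and 28.1 RPKM). Csf1r, a macrophage receptor, had 95 counts in replicate 1 and 1 in replicate 2, while the macrophage markers Adgre1 and Tyrobp were at 0 in both. Those of primitive endoderm summed to 3.98 and 2.42 RPKM, most of it Gata4 (3.46 and 2.04 RPKM). Gata6 (16 and 5 counts) and Dab2 (52 and 17 counts) were more than 2-fold higher in replicate 1. Gata4, Sox17 (14 and 10 counts) and Pdgfra (83 and 87 counts) were inside 2-fold. The part of these cells in the differences below was not tested. In bulk RNA, fewer cells that express a gene and less RNA per cell cannot be told apart.

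All 9 sensor genes were measured in both libraries, and their levels spanned more than an order of magnitude. Levels are given as RPKM, the counts per kb of annotated exonic sequence and per M counts of the library after scaling by the trimmed mean of M-values (TMM), so that genes of different length can be compared. Mavs, Ddx58 and Eif2ak2 had the highest mean levels, at 14.9 ± 2.82, 13.3 ± 7.10 and 13.0 ± 0.0835 RPKM (SD, n = 2). Adar had 9.32 ± 0.127, Zbp1 7.58 ± 4.81 and Ddx60 2.21 ± 0.930 RPKM (SD, n = 2). Tlr3, Dhx58 and Ifih1 were the lowest, at 0.927 ± 0.486, 0.764 ± 0.333 and 0.543 ± 0.595 RPKM (SD, n = 2). Among genes that averaged 10 counts or more, Mavs was above 80.4% in replicate 1 and 73.8% in replicate 2, whereas Ifih1 was above 25.7% and 7.31%.

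In this order, several neighbours were not separated by the spread of the libraries. The ranges of Mavs and Ddx58, of Ddx58 and Eif2ak2, of Adar and Zbp1, of Tlr3 and Dhx58, and of Dhx58 and Ifih1 overlapped. Those of Eif2ak2 and Adar, of Zbp1 and Ddx60, and of Ddx60 and Tlr3 did not. The order also depends on the length used for Ddx58, whose exons of all transcripts add up to 7050 bases while its longest transcript has 3874. Per length of the longest transcript, Ddx58 came first with 24.1 RPKM and Mavs second with 16.2, and the other 7 genes kept their places.

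**Figure D2:**
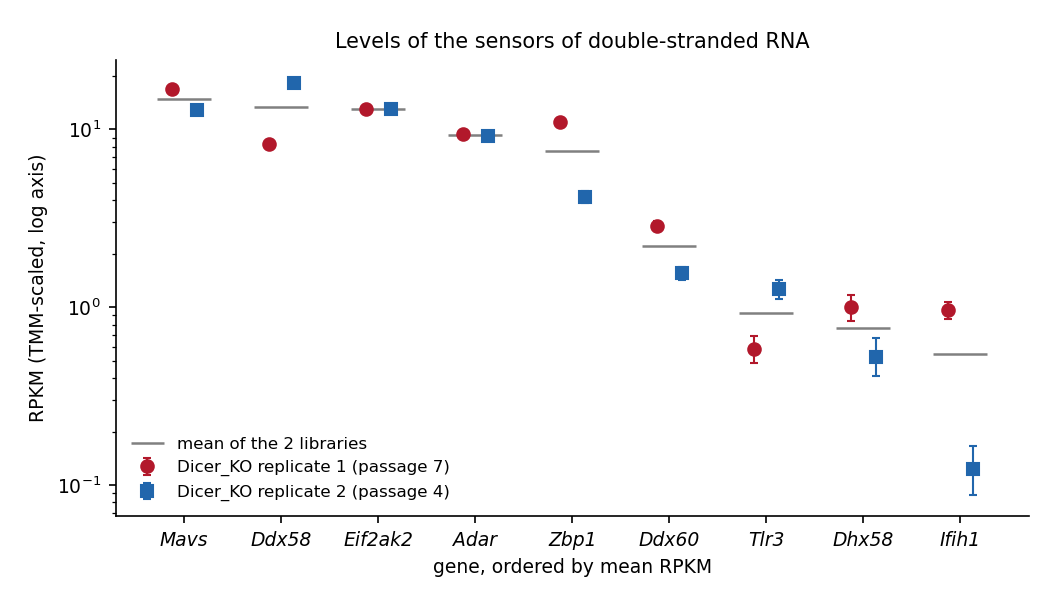
RPKM (log axis) of each sensor gene in Dicer_KO replicate 1 (red circles) and replicate 2 (blue squares), with exact Poisson 95% intervals that cover counting error only, and the mean of both as a grey line. Eif2ak2 and Adar nearly coincide in the 2 libraries, Ifih1 is far apart (0.964 and 0.123 RPKM), and Ddx58 and Tlr3 are higher in replicate 2.

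The 2 libraries differed in opposite directions for different sensors. Of the 9 genes, 2 were more than 2-fold higher in replicate 1 (Ifih1 and Zbp1) and 2 more than 2-fold higher in replicate 2 (Ddx58 and Tlr3). Over the 17788 genes that averaged 10 counts or more, 21.4% were beyond 2-fold in either direction, 14.2% higher in replicate 1 and 7.14% higher in replicate 2. All 9 sensors averaged 100 counts or more, and over the 13005 genes that did so the shares were 14.0%, 9.93% and 4.11%. Beyond 4-fold was 1 sensor, Ifih1, against 5.71% of the 17788 genes. The median log2 ratio of replicate 1 over replicate 2 was 0.39 over the 9 sensors and 0.02 over the 17788 genes. Scaled by total counts instead of TMM, 4 sensors were beyond 2-fold higher in replicate 1 and 1 in replicate 2, because Dhx58 (1.03) and Ddx60 (1.00) crossed the threshold and Tlr3 fell just short of it. All log2 ratios below were taken after TMM scaling and a pseudocount of 1, and their intervals are exact binomial intervals for counting error only.

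**Figure D3:**
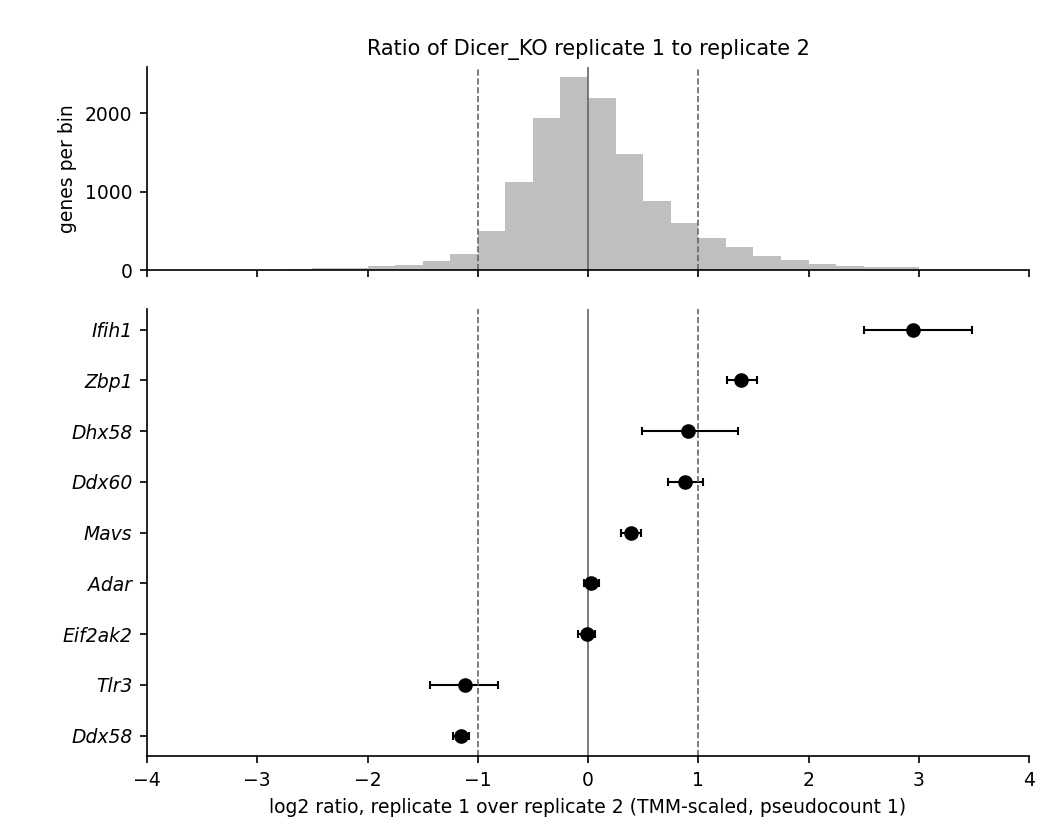
Log2 ratio of replicate 1 over replicate 2 on the x axis, with solid and dashed lines at no difference and at 2-fold; the upper panel counts the genes that averaged 100 counts or more in bins of 0.25, and the lower panel gives each sensor with its exact 95% counting interval. Ifih1 (2.95) and Zbp1 (1.39) lie beyond 2-fold on the right, Ddx58 (-1.15) and Tlr3 (-1.12) beyond it on the left, and Eif2ak2 and Adar at 0 within counting error.

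Among the cytoplasmic receptors, Ifih1 and Ddx58 went opposite ways. Ifih1 (ENSMUSG00000026896, chr2:62595798-62646255 of GRCm38, minus strand), which codes for MDA5, the receptor of long dsRNA, had 342 counts in replicate 1 and 40 in replicate 2. This is 8.20 CPM (95% exact Poisson interval 7.35 to 9.12) against 0.962 (0.687 to 1.31), a log2 ratio of 2.95 (2.50 to 3.48), or 7.70-fold higher in replicate 1. Of the 13005 genes that averaged 100 counts or more, 0.554% had a higher ratio. Of the 9 sensors, Ifih1 had the lowest mean level and the widest gap between the libraries.

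Ddx58 (ENSMUSG00000040296, chr4:40203773-40239828, minus strand), which codes for RIG-I, the receptor of dsRNA ends that carry triphosphates, had 2525 counts in replicate 1 and 5147 in replicate 2. Its levels were 8.24 and 18.3 RPKM, and the log2 ratio was -1.15 (-1.22 to -1.08), or 2.22-fold higher in replicate 2. Only 3.02% of the 13005 genes had a lower ratio. Per exonic base, Ddx58 was the highest of the 9 sensors in replicate 2. In replicate 1 Mavs, Eif2ak2, Zbp1 and Adar stood above it, but the places of Zbp1 and Adar depended on the length used. Per length of the longest transcript in replicate 1, Ddx58 was 10.4 times Ifih1 and Adar 8.99 times. By that length Adar and Zbp1 (0.901 times Adar) were below Ddx58, and Mavs (1.23 times Ddx58) and Eif2ak2 stayed above it.

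Dhx58 (ENSMUSG00000017830, chr11:100694884-100704271, minus strand), which codes for LGP2, a receptor without the signalling domains of RIG-I and MDA5, had 142 counts in replicate 1 and 69 in replicate 2. The log2 ratio was 0.91 (0.49 to 1.36), so that counting error alone leaves its side of the 2-fold threshold unsettled. The difference from no change was larger than counting error. Of its exonic bases, 4.31% are shared with Dhx58os on the opposite strand.

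The make-up of the receptor family differed accordingly, and its values do not depend on the scaling of the libraries. Of the summed RPKM of the 3 receptors, Ddx58 took 80.8% in replicate 1 and 96.6% in replicate 2. Ifih1 took 9.45% and 0.648%, and Dhx58 took 9.79% and 2.79%. Per exonic base, Ddx58 was 8.55 times Ifih1 in replicate 1 (exact interval 7.63 to 9.60) and 149 times in replicate 2 (109 to 209). Per length of the longest transcript the ratios were 10.4 and 182. Dhx58 and Ifih1 were level in replicate 1, with a ratio of 1.04 (0.846 to 1.26), and Dhx58 was 4.30 times Ifih1 in replicate 2 (2.87 to 6.52).

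Mavs (ENSMUSG00000037523, chr2:131234063-131248025, plus strand), the adaptor that RIG-I and MDA5 share, had 2448 counts in replicate 1 and 1716 in replicate 2. Its levels of 16.8 and 12.9 RPKM gave a log2 ratio of 0.39 (0.30 to 0.48), a gap beyond counting error but well inside 2-fold, and 25.7% of the 13005 genes had a higher ratio. The adaptor exceeded its receptor Ddx58 in replicate 1, by 2.04 times per exonic base (1.93 to 2.16). It was below Ddx58 in replicate 2, at 0.703 times (0.665 to 0.742). Per length of the longest transcript these ratios were 1.23 and 0.423. Mavs exceeded Ifih1 in both libraries, by 17.5 and 105 times per exonic base.

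Ddx60 (ENSMUSG00000037921, chr8:61928087-62038244, plus strand), a helicase described as a helper of the RIG-I-like receptors, had 1083 counts in replicate 1 and 539 in replicate 2. Its levels were 2.87 and 1.56 RPKM, with a log2 ratio of 0.88 (0.73 to 1.04), higher in replicate 1 like Ifih1 and Dhx58. This ratio was inside 2-fold, like that of Dhx58, but the interval spans the threshold and the ratio by total counts crossed it. The Ddx60 promoter holds both ISRE matches shown above. The 250 bases before its start are given with these matches in capitals, beside those of Ifih1 and Ddx58, the receptors whose ratios were farthest apart and whose matches begin after the start.
Ddx60, upstream (plus strand, chr8:61927837-61928086): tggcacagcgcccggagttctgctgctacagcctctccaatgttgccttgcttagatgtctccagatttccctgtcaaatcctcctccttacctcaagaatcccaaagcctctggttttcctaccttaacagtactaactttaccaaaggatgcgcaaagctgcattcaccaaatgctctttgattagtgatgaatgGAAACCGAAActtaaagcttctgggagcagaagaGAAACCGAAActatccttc
Ifih1, upstream (minus strand, chr2:62646256-62646505): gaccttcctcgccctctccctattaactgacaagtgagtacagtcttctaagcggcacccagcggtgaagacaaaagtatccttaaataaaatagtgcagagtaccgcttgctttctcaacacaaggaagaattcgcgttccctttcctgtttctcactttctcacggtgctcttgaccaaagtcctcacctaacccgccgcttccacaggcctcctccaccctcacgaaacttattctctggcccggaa
Ddx58, upstream (minus strand, chr4:40239826-40240075): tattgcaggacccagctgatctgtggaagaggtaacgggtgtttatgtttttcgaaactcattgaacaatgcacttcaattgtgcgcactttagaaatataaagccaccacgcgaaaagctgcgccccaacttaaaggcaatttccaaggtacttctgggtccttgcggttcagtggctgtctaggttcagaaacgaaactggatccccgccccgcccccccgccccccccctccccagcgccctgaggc

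These upstream stretches differed little in base composition, with 46.0% G and C for Ddx60, 53.6% for Ddx58 and a share in between for Ifih1. Whether an ISRE bears on the ratios was not tested. Only the core was sought, Dhx58 and Zbp1 had no window, and the outermost Tlr3 start was not searched. The 4 genes with a match had log2 ratios of 2.95 (Ifih1), 0.88 (Ddx60), -0.01 (Eif2ak2) and -1.15 (Ddx58), and the 3 with a window but no match had 0.39 (Mavs), 0.03 (Adar) and -1.12 (Tlr3).

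Tlr3 (ENSMUSG00000031639, chr8:45395665-45411080, minus strand), the endosomal dsRNA receptor, had 132 counts in replicate 1 and 264 in replicate 2. At 0.584 and 1.27 RPKM it was higher in replicate 2, like Ddx58, with a log2 ratio of -1.12 (-1.43 to -0.82). The interval spans the 2-fold threshold. Gm45542, an antisense gene, shares 7.32% of its exonic bases.

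PKR and ADAR1, the kinase and the editing enzyme that both bind dsRNA, were the steadiest of the 9 genes. Eif2ak2 (ENSMUSG00000024079, chr17:78852564-78882573, minus strand) had 2882 counts in replicate 1 and 2672 in replicate 2, a log2 ratio of -0.01 (-0.09 to 0.06). Adar (ENSMUSG00000027951, chr3:89715022-89753446, plus strand) had 3320 and 2992 counts, a log2 ratio of 0.03 (-0.04 to 0.10). Neither differed by more than counting error after TMM scaling, while by total counts the ratios were 0.10 and 0.15. Adar stood at 0.726 times Eif2ak2 per exonic base in replicate 1 (0.690 to 0.763) and at 0.705 times in replicate 2 (0.669 to 0.743). This ratio of the 2 RNAs was alike within these intervals, and protein was not measured in these libraries. Adar exceeded Ifih1 by 9.76 times in replicate 1 (8.73 to 10.9) and by 75.2 times in replicate 2 (55.1 to 106). Of the exonic bases of Adar, 16.8% are shared with Chrnb2 on the opposite strand, and 4.32% of those of Eif2ak2 with other opposite-strand genes. The authors left out reads on overlapping regions, so counts in these stretches may be missing. Transcripts of Adar from its alternative starts, which code for a long and a short ADAR1, were counted as one gene.

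Zbp1 (ENSMUSG00000027514, chr2:173206612-173218923, minus strand), the sensor of Z-form nucleic acids that can set off necroptosis through RIPK3, had 1683 counts in replicate 1 and 588 in replicate 2. Its levels were 11.0 and 4.17 RPKM, with a log2 ratio of 1.39 (1.26 to 1.53), or 2.63-fold. Higher ratios were found for 5.44% of the 13005 genes. Relative to Adar, which also has a Z-binding domain, Zbp1 stood at 1.17 times per exonic base in replicate 1 (1.10 to 1.24). In replicate 2 it stood at 0.452 times (0.413 to 0.494). Per length of the longest transcript the ratios were 0.901 and 0.349. Which of the 2 genes was higher in replicate 1 therefore depended on the length used.

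The genes that work beside the sensors were taken as 6 lists with 60 genes, of which 43 averaged 10 counts or more. Of these 43, 5 were more than 2-fold higher in replicate 1, where 14.2% of all genes were, and 0 were more than 2-fold higher in replicate 2, where 7.14% of all genes were. With no filter on low counts, 8 of the 60 were beyond 2-fold in either direction, against 18.2% of all 43629 genes. Over the 43, the median log2 ratio was 0.19.

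In the list of RIG-I-like receptor and TLR3 signalling, 2 of 15 genes were beyond 2-fold, both higher in replicate 1, where 14.2% of all genes were. The median log2 ratio of the list was 0.46. Unc93b1, which carries endosomal Toll-like receptors including TLR3 to their compartment, had 864 counts in replicate 1 and 135 in replicate 2, a log2 ratio of 2.55 (2.29 to 2.83). The ratio of Tlr3 had the opposite sign (-1.12), and 2 libraries cannot show whether the 2 genes are related. Nlrx1, a mitochondrial protein described as a brake on MAVS, had 241 and 62 counts, a log2 ratio of 1.82 (1.43 to 2.26), and the lowest mean level of the list at 0.618 ± 0.491 RPKM (SD, n = 2). Trim25, the ubiquitin ligase known for activating RIG-I, had the highest, with 45.3 RPKM in replicate 1 and 51.3 in replicate 2 and a log2 ratio of -0.18. The 13 genes inside 2-fold, among them Trim25, the kinase Tbk1 and the factor Irf3, lay between -0.30 and 0.88.

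None of the 7 eIF2 kinases and PKR partners was beyond 2-fold, against 21.4% of all genes. Their log2 ratios ran from -0.55 to 0.83, with a median of 0.25. Eif2s1, the subunit that PKR phosphorylates, had the highest mean level, with 36.5 and 53.2 RPKM, and Eif2ak4, the kinase GCN2, the lowest, with 7.10 and 5.30 RPKM. Of the 5 cell death partners of ZBP1, 2 were beyond 2-fold, both higher in replicate 1, where 14.2% of all genes were. The list median was 0.11. Mlkl, the executor of necroptosis, had 96 and 33 counts and a log2 ratio of 1.39 (0.83 to 2.04). Casp8, the protease that restrains necroptosis, had 514 and 221 counts and a log2 ratio of 1.09 (0.87 to 1.33). Ripk3, the kinase that ZBP1 binds, had 551 and 539 counts and a log2 ratio of -0.09 (-0.26 to 0.08). Ripk1 went the other way inside 2-fold, with 964 and 1382 counts and a log2 ratio of -0.64 (-0.76 to -0.52).

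Of the 10 ADAR relatives and other dsRNA-binding proteins, 9 had a mean of at least 10 counts, with a median of -0.08. None of the 9 was beyond 2-fold, against 21.4% of all genes. Dhx9, a helicase of dsRNA, had the highest mean level of the list, with 49.3 RPKM in replicate 1 and 80.7 in replicate 2. Adarb2, a relative of ADAR1 without known editing activity, had 1 count in replicate 1 and 0 in replicate 2. Of the 10 sensors of other nucleic acids, 7 had such a mean, with a median of -0.17. Of these 7, 1 was more than 2-fold higher in replicate 1, as were 14.2% of all genes. This was Sting1, the adaptor of DNA sensing, with 406 counts in replicate 1 and 31 in replicate 2 and a log2 ratio of 3.55 (3.06 to 4.17), larger than that of any dsRNA sensor. Ddx41 was the highest of that list, at 25.6 and 38.9 RPKM, and Tlr9 the lowest above 0, with 1 and 2 counts.

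Interferon genes, the output of the sensing pathway, were at the edge of detection. The 13 genes listed held 11 counts in replicate 1 and 3 in replicate 2 in all, and 8 of them had 0 in both libraries. Ifnb1 had 1 count in replicate 1 and 0 in replicate 2. Ifnl2 and Ifnk had 4 and 0 counts each, the most among the 13, so that no difference could be measured for them at this depth. Interferon alpha and lambda genes have near-identical copies, and how reads with several alignments were counted is not given in the sources used here.

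**Figure D4:**
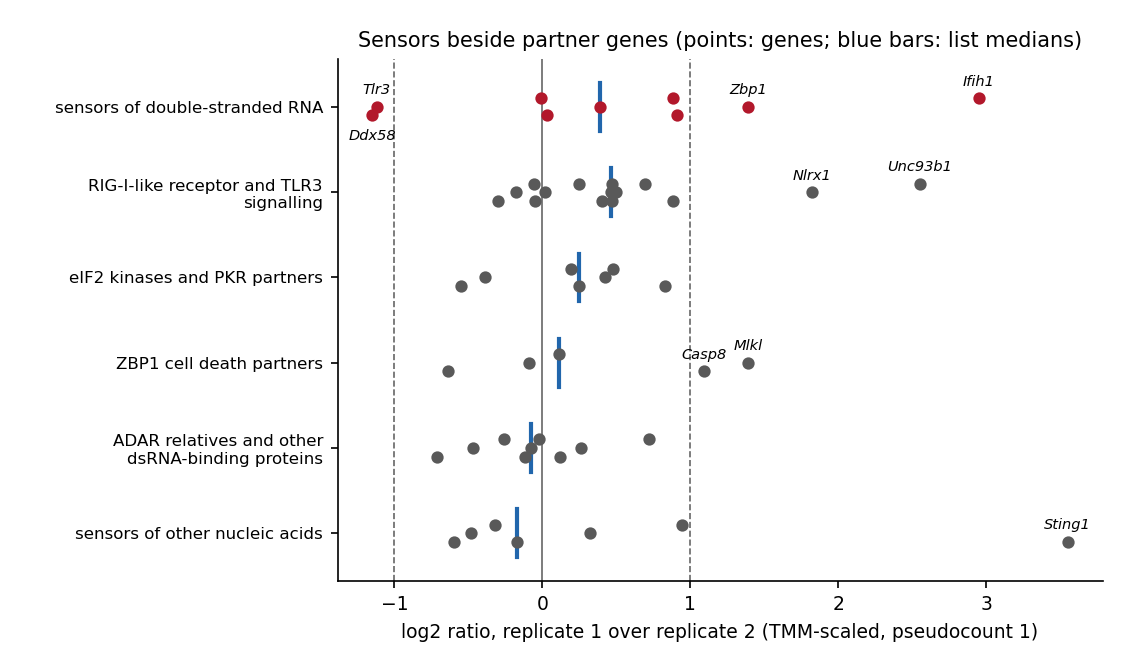
Each point is one gene that averaged 10 counts or more, placed by its log2 ratio of replicate 1 over replicate 2, with the dsRNA sensors in red, partner lists in grey and list medians as blue bars; dashed lines mark 2-fold. Sensors lie beyond the dashed lines on both sides. The 5 of 43 partner genes beyond 2-fold (Unc93b1, Nlrx1, Mlkl, Casp8 and Sting1) are all on the right. Of all genes with such a mean, 14.2% were beyond 2-fold on the right and 7.14% on the left.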

How the data were processed

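Reads were trimmed by the authors with Trimmomatic and mapped to mm10 with STAR (2.4.2a, per the submitters' processing notes), which kept reads with many alignments. They were then counted per Ensembl GRCm38 gene (release 78) with featureCounts, without those in regions where genes overlap. The labels name a reverse-stranded library protocol, and the strand setting of the counting is not given in the sources used here. The deposited values are raw counts per gene.

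Gene names, positions and exon lengths came from GENCODE M21 (GRCm38), in which 1081 of the 43629 listed genes had no entry. Counts were scaled by TMM factors from edgeR (4.0.16, R 4.3.3). RPKM used all exonic bases of a gene. Log2 ratios scaled replicate 2 to replicate 1 and added a pseudocount of 1. Intervals (95%, scipy 1.17.1) were exact Poisson for levels and exact binomial for ratios. They cover counting error only, since reads carried no molecular identifiers. The replicates share a genotype label, and nothing says that they are repeats of one line. With 1 group, no test was run, and genes were counted past a fixed fold of 2, beside the share of all genes past it. The ratio, its interval and the 2-fold rule were tried on simulated Poisson counts, scaled by library totals. The interval assumes such counts, so this checks the calculation only. TMM scaling, RPKM and the motif search were not tried on simulated data.

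The members and lists were chosen with earlier results of these data known. Named genes are the 9 sensors, Dicer1, partner genes beyond 2-fold and the highest and lowest of each list by RPKM. Other genes, the cell type markers among them, were named after their values were seen. With 2 libraries, no genes can be ranked by likeness of pattern. Alternatives were DESeq2 (1.42.0) size factors, total counts, other pseudocounts, count minimums, folds and lengths, and leaving out each replicate. One further promoter result is not reported here.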

Additional observations from a re-analysis of the deposited data

How the results depend on the processing

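No paired analysis was possible because the design has 1 group and so nothing to pair. With 2 libraries, leaving one out always moves a mean level by less than their SD and says nothing about stability. Per length of the longest transcript, mean levels moved by more than their SD for Ddx58 (24.1 RPKM), Eif2ak2 (15.5 RPKM) and Adar (12.8 RPKM), and the other 42 values of levels under alternatives stayed within it. Total counts in place of TMM raised the log2 ratios by about 0.12 (the median of all genes went from 0.02 to 0.14), beyond the counting interval for Ddx58 (-1.03), Mavs (0.51), Eif2ak2 (0.10) and Adar (0.15). The other 23 ratios under alternatives stayed within their intervals. At 4-fold, 1 sensor (Ifih1) and 2 partner genes were counted, in place of 4 and 5 at 2-fold, where 5.71% of all genes were beyond 4-fold and 21.4% beyond 2-fold. With no filter on low counts 8 partner genes were beyond 2-fold, as were 18.2% of all genes. DESeq2 size factors and a pseudocount of 0.1 left both counts at 4 and 5. Depth limits the interferon genes and, in replicate 2, Ifih1.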
